A study of Mus musculus with 12 samples.

Results

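The genes described here are the 4 adult globin genes Hba-a1, Hba-a2, Hbb-bs and Hbb-bt and the erythroid heme synthesis gene Alas2. They are 5 of the 55573 genes of the count table and were found by their Ensembl identifiers on GRCm38. No measured value entered that match, but the genes were chosen with earlier results of these data known. All 5 had reads, and all 5 passed the filter on low counts in each comparison except that of pools of 20 with pools of 5 fibers, where Alas2 did not.

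RNA was sequenced from the extensor digitorum longus (EDL), a fast muscle of the mouse hindlimb, of C57BL/6 mice. There were 3 libraries each of single myofibers, of pools of 5 myofibers, of pools of 20 myofibers and of whole EDL muscle, and every library was made with SMART-Seq HT, a kit for full-length cDNA from very small RNA inputs. The labels name no genotype, treatment, time or age beyond the strain, and the groups differed in what was put into the tube. The protocol breaks single myofibers open straight in a buffer from the kit, takes RNA from whole muscle with Trizol, and gives no separate step for the pools, so that for single fibers dissection and lysis cannot be told apart. Whether libraries of a group came from separate animals is not stated, so p-values refer to the spread among these 12 libraries, which may be technical.

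Adult hemoglobin is a tetramer of alpha and beta globin chains, each holding a heme group that binds oxygen. Mice carry paired copies of the adult alpha and beta genes, and Alas2 makes the erythroid form of the enzyme that starts heme synthesis. Circulating reticulocytes, young red cells that have lost their nucleus, still hold globin mRNA, and muscle is threaded with capillaries, whereas a muscle fiber stores oxygen on another globin, myoglobin.

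The deposited values were raw read counts, and the totals per library ran from 4702823 to 27787120 reads. Levels are given as counts-per-million (CPM), scaled with the trimmed-mean (TMM) factors of edgeR, as reads-per-million (RPM) of a library's own total without such a factor, or, between genes, as transcripts-per-million (TPM), which divides by exon length. As a check of the tissue, 8 genes of the fast fiber summed to between 16127 and 339876 CPM in every library, and 20-fiber pool 2 held the lowest sum. That library stood apart, with a TMM factor of 2.95 against 0.522 to 1.60 in the other 11. Sensory receptor genes (smell, pheromone and taste, 1504 in all) were taken as a gauge of background reads. Of these, 58.0% to 97.3% had a read in 5-fiber pools 1 and 2 and in the 3 pools of 20. In the other 7 libraries the share was 2.33% to 26.7%. The part of such background reads in the results was not tested. The read density of each globin lay above the 99th percentile of these receptor genes in all 6 pools and in whole muscle. In 20-fiber pool 2 the margin was small for alpha globin. There Hba-a2 was at 17.99 and Hba-a1 at 23.4 reads per kilobase of exon, against a percentile of 17.87.

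The 2 alpha globin genes lie on chromosome 11 and the 2 beta globin genes on chromosome 7. The near identity of each pair sets how far its members can be told apart by reads. In GENCODE vM21, Hba-a1 (ENSMUSG00000069919) spans 32283511 to 32284465 and Hba-a2 (ENSMUSG00000069917) 32296489 to 32297298, both on the plus strand of chromosome 11. Hbb-bs (ENSMUSG00000052305) spans 103826534 to 103828096 and Hbb-bt (ENSMUSG00000073940) 103812524 to 103813996, both on the minus strand of chromosome 7. Each coding sequence, 429 bases with the stop codon for alpha and 444 for beta, lies in 3 exons. The coding sequences of a pair differ at 1 base, which is the last base of a codon and does not change the amino acid. Counted from 1 at the start codon the difference is C381T from Hba-a1 to Hba-a2 (codon 127) and C417T from Hbb-bs to Hbb-bt (codon 139). The 41 coding bases around each difference are shown from GRCm38 because no other coding base separates the copies, with the differing base in capitals. The windows are chr11:32284323-32284363 and chr11:32297140-32297180 on the plus strand, and chr7:103826672-103826712 and chr7:103812663-103812703 on the minus strand.
Hba-a1: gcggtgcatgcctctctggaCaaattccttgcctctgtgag
Hba-a2: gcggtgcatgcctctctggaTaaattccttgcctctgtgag
Hbb-bs: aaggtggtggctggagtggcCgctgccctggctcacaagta
Hbb-bt: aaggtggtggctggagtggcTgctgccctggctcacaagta
Of all 50-base windows of the annotated transcripts, 72.3% in Hba-a1 and 89.3% in Hba-a2 also occur in the partner, as do 53.2% in Hbb-bs and 58.3% in Hbb-bt. How reads with several matches were counted is not stated, so the split within a pair is uncertain. If such reads were left out, the sum of a pair would be too low as well, and alpha and beta could lose unlike parts.

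Alas2 (ENSMUSG00000025270, chromosome X, 150547375 to 150570638, plus strand, 11 exons) lies wholly inside the span of Apex2, a DNA repair endonuclease gene on the opposite strand. It shares 11% of its 50-base windows with Apex2 transcripts. Whether counting used strand is not stated, so reads of Alas2 and Apex2 cannot be fully told apart. Apex2 was at 4.82 to 5.88 CPM in whole muscle and 4.04 to 33.6 CPM in the fiber libraries with a fitted log2 change of 1.07 (SE 0.47, edgeR adjusted p = 0.119). All 3 whole muscle values of Apex2 lay in the lower part of its range.

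The sequence before the start of transcription is shown for all 5 genes since the 4 globins were high and low in the same libraries, while Alas2 was low in every pool. These are the 120 bases before the RefSeq start on GRCm38.p6, and GENCODE lists transcripts of each gene that begin inside or, for Hba-a1 and Hbb-bs, before this window. Capitals mark ATATAA, a form of the TATA box, and further the CCAAT box, the CACCC box, to which Klf factors bind, and GATAA, a core of GATA sites, searched on both strands.
Hba-a1, chr11:32283552-32283671, plus strand: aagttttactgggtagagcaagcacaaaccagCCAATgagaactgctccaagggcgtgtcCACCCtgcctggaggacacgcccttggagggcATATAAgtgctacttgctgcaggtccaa
Hba-a2, chr11:32296372-32296491, plus strand: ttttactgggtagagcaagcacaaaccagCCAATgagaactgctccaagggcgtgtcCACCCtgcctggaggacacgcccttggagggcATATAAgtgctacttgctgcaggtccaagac
Hbb-bs, chr7:103827929-103828048, minus strand: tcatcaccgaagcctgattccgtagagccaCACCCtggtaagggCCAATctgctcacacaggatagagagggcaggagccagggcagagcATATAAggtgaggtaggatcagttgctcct
Hbb-bt, chr7:103813924-103814043, minus strand: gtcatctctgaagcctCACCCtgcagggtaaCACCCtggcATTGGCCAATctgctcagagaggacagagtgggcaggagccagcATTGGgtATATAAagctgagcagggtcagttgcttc
Alas2, chrX:150547297-150547416, plus strand: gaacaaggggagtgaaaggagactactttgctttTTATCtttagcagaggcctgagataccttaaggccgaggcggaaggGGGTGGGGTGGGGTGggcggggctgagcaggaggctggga
All 4 globins hold the TATA form, the CCAAT box and the CACCC box, and none holds GATAA in this window. Alas2 holds 3 CACCC boxes and 1 GATAA on the minus strand, and neither a CCAAT box nor the TATA form. Of 27025 RefSeq promoters cut to the same length, 4.68% hold ATATAA, 22.1% CCAAT, 31.3% CACCC and 10.7% GATAA. Allowing a shift into the bases beside the window, all 120 bases of one alpha window match the other gene at a shift of 3 bases, and 89 bases of one beta window match at the best shift. A match of letters is a description of the sequence and not a measured binding site.

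In whole muscle the globins were among the abundant mRNAs. Hbb-bs, a beta globin chain, led with 1508 ± 119 TPM (SD, n = 3), rank 66 of all genes by mean TPM. Hbb-bt followed with 466 ± 29.5 TPM, Hba-a1 with 390 ± 65.1 TPM, Hba-a2 with 380 ± 67.0 TPM and Alas2 with 19.4 ± 0.834 TPM. The 3 libraries of Hbb-bt (432 to 484 TPM) and Hba-a1 (316 to 439 TPM) overlapped, as did those of Hba-a1 and Hba-a2, so the order within these neighbours was not larger than the spread. Hbb-bs lay above and Alas2 below the rest without overlap. Reads that match both copies of a pair may not have been counted, so the order of beta and alpha globin is uncertain. Together the 4 globins took 947, 1012 and 1256 RPM in whole muscle 1 to 3.

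Single fibers were almost free of globin reads. The 4 genes together had 0 reads in single fiber 1, which allows up to 0.158 RPM (3 reads), 7 reads in single fiber 2 and 4 in single fiber 3. Pools of 5 held 201, 336 and 65.9 RPM of globin, and pools of 20 held 24.5, 48.1 and 485 RPM. By RPM every pool lay above every single fiber and below every whole muscle library, and the 2 sizes of pool overlapped. The number of fibers in a pool thus did not order the globin level, and 20-fiber pool 3 held the most of any fiber library by RPM.

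The alpha globin Hba-a1 had 0, 4 and 0 reads in single fibers, or 0 to 0.260 CPM. It was at 82.4, 67.8 and 24.0 CPM in pools of 5, at 3.40, 1.37 and 59.0 CPM in pools of 20, and at 79.2, 121 and 140 CPM in whole muscle. In 5-fiber pool 1 it stood above whole muscle 1, the sole case among the 5 genes in which a fiber library reached a whole muscle library on the CPM scale. Its partner Hba-a2 had 0, 1 and 1 reads in single fibers. It was at 56.5, 53.3 and 22.0 CPM in pools of 5, at 2.95, 0.866 and 44.1 CPM in pools of 20, and at 65.0, 89.8 and 118 CPM in whole muscle. Here no fiber library overlapped whole muscle, but 5-fiber pools 1 and 2 came close to its lowest library.

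The beta globin Hbb-bs had 0, 0 and 3 reads in single fibers. It was at 197, 291 and 46.4 CPM in pools of 5, at 15.7, 11.8 and 203 CPM in pools of 20, and at 344, 395 and 495 CPM in whole muscle. Hbb-bt had 0, 2 and 0 reads in single fibers. It was at 48.0, 40.5 and 14.7 CPM in pools of 5, at 1.70, 2.31 and 43.5 CPM in pools of 20, and at 104, 109 and 133 CPM in whole muscle. For both beta genes, as for both alpha genes, pools 1 and 2 of 5 fibers and pool 3 of 20 fibers were the high pools.

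Alas2 had few reads in every fiber library. It had 15, 4 and 0 reads in single fibers, 17, 4 and 16 in pools of 5 and 2, 11 and 11 in pools of 20, against 193, 476 and 517 in whole muscle. That is 0 to 1.56 CPM in the 9 fiber libraries and 14.9, 17.0 and 17.4 CPM in whole muscle, with the 3 fiber groups overlapping each other and none reaching whole muscle. In single fiber 3, in 5-fiber pool 2 and in all 3 pools of 20 its read density did not exceed the 99th percentile of the receptor genes, so there it could not be told from background reads. In bulk libraries such as these, fewer cells of a type and less RNA per cell cannot be told apart.

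**Figure D1:**
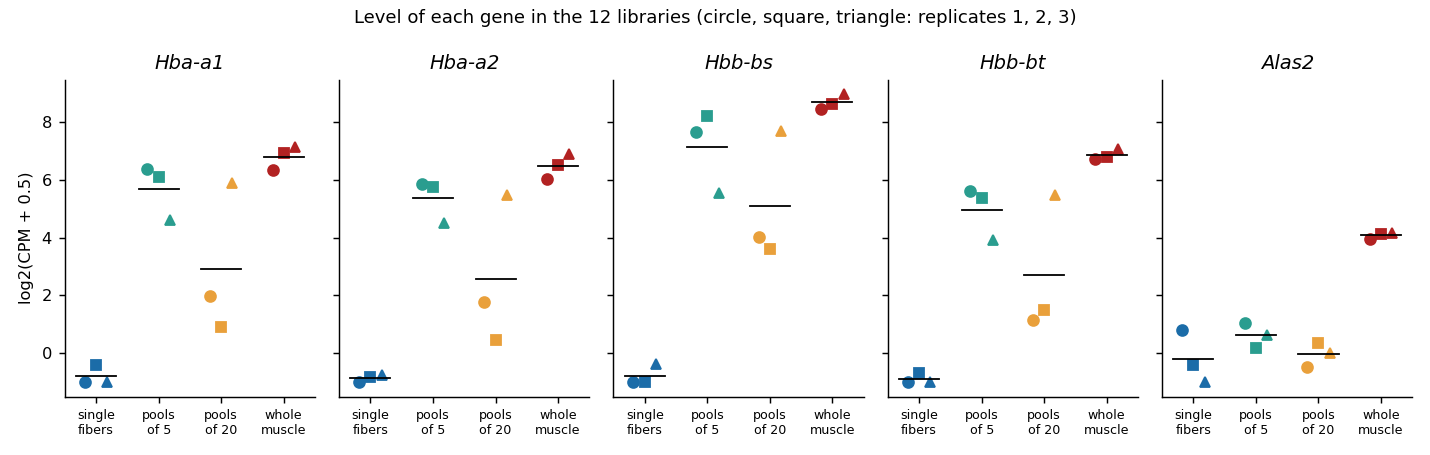
Level of each of the 5 genes in the 12 libraries, as log2(CPM + 0.5) on the vertical axis and by group on the horizontal axis; circles, squares and triangles are replicates 1, 2 and 3, and lines are group means of the plotted values. The globins lie at the bottom in single fibers, spread over a wide range in pools and are high in whole muscle, where Hbb-bs is at 344 to 495 CPM, while Alas2 stays at 1.56 CPM or less in every fiber library.

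The comparison of all isolated fibers with whole muscle, in which the 3 fiber groups weigh equally on the log scale, asks which RNA the dissected fibers lack. All 5 genes fell in it, where 7.78% of the 22110 genes tested fell and 7.46% rose. Alas2 was at 0.700 ± 0.515 CPM (SD, n = 9) against 16.5 ± 1.34 (n = 3) with a fitted log2 change of -4.60 (SE 0.57, edgeR adjusted p = 4.68e-05). Hbb-bs was at 85.1 ± 113 CPM against 411 ± 76.9 with a fitted log2 change of -5.26 (SE 0.75, adjusted p = 2.00e-04), and Hbb-bt changed by -5.18 (SE 0.71, adjusted p = 1.40e-04). Hba-a1 changed by -4.47 (SE 0.74, adjusted p = 6.80e-04) and Hba-a2 by -4.70 (SE 0.71, adjusted p = 3.35e-04). The libraries of the 2 sides did not overlap for 4 of the 5 genes, where 7.8% of all genes were lower without overlap. This fitted mean gives the single fibers, with few or no globin reads, the same weight as the pools, and it is no bound on the fold. The median of all genes stood at 0.40 with TMM factors, at 0.56 with relative log expression (RLE) factors, at 0.69 with upper-quartile factors and at -0.30 on total reads without factors. The 5 genes lay between -4.24 and -6.01 under these scalings and passed under each.

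Single fibers against whole muscle gave the widest gap. All 5 genes fell, in a comparison in which 19.8% of 14028 genes fell. Since the globins had 2 to 4 reads over the 3 single fibers, the ratio of pooled RPM is given with its Clopper-Pearson 95% interval, which covers counting error only. Hbb-bs, with 3 against 30188 reads, was 12266 times as abundant in whole muscle (interval 4197 to 59482). For Hbb-bt the ratio was 5101 (1412 to 42125), for Hba-a1 2611 (1019 to 9585) and for Hba-a2 4169 (1154 to 34435). Each of the 4 passed with an adjusted p between 1.87e-04 and 3.73e-04. Alas2, with 19 against 1186 reads, had a ratio of 76.1 (48.5 to 127) and a fitted log2 change of -5.09 (SE 0.89, adjusted p = 0.00588). The interval for Alas2 lies below that of every globin, but single fiber 1 alone gave 15 of its 19 reads, and spread between libraries is not covered. No single fiber overlapped whole muscle in any of the 5 genes, where 30.9% of all genes were lower without overlap.

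In pools of 5 against whole muscle 1 of the 5 genes fell, where 4.22% of 14764 genes fell. That gene was Alas2, at 1.08 ± 0.461 CPM against 16.5 ± 1.34 (n = 3 each) with a fitted log2 change of -3.96 (SE 0.40, adjusted p = 0.00388). Without whole muscle 1 its adjusted p was 0.0527, and 0.0306% of all genes then fell. The globins gave -1.01 for Hba-a1 (adjusted p = 0.246), -1.09 for Hba-a2 (0.175), -1.23 for Hbb-bs (0.266) and -1.80 for Hbb-bt (0.0593), none past the threshold of 0.05. Hbb-bt passed without 5-fiber pool 3 (adjusted p = 8.72e-04), when 23.1% of all genes fell. On total reads without TMM factors all 5 genes passed, with globin log2 changes from -2.20 to -2.99, but there 36.5% of all genes fell. All 5 also passed with 5-fiber pool 3 alone as the pool, that is after leaving out every library with reads on over 50% of the receptor genes, a fit in which 27.0% of all genes fell. In that fit the lone pool was assumed to vary like the whole muscle libraries. Without overlap, 4 of the 5 genes were lower, as were 20.2% of all genes. The globin call in pools of 5 therefore depends on the scaling and on the library.

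In pools of 20 against whole muscle Alas2 and Hbb-bt fell, where 13.5% of 16969 genes fell. Alas2 was at 0.512 ± 0.283 CPM with a fitted log2 change of -4.51 (SE 0.47, adjusted p = 2.00e-05). Hbb-bt was at 15.8 ± 24.0 CPM against 116 ± 15.4, a change of -2.60 (SE 0.88, adjusted p = 0.0245). Hbb-bs (-2.17, adjusted p = 0.0614), Hba-a1 (-2.17, 0.0651) and Hba-a2 (-2.25, 0.0520) did not pass. The outcome depended on the library left out. Without 20-fiber pool 3 all 5 genes passed, where 13.9% of all genes fell, and the globins lay between -4.43 and -5.28. All 5 passed also without whole muscle 1, where 11.1% of all genes fell. Of the 5 genes 4 passed without 20-fiber pool 1, where 15.1% of all genes fell, or without pool 2, where 23.0% fell. No pool of 20 overlapped whole muscle in any of the 5 genes, where 30.4% of all genes were lower without overlap. Whether the fall of Alas2 in pools differed from that of the globins was not tested.

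**Figure D2:**
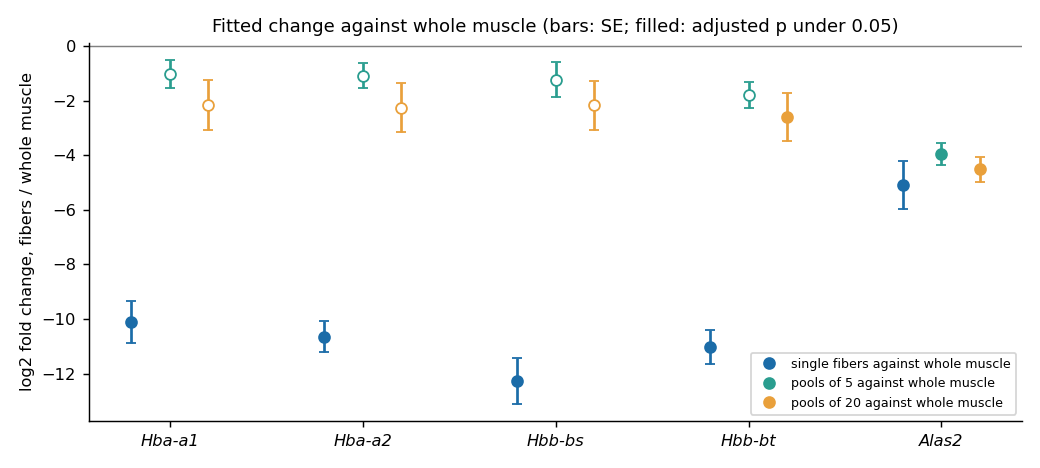
Fitted log2 fold change of each of the 5 genes in single fibers, pools of 5 and pools of 20 against whole muscle; bars are standard errors, and filled symbols have an adjusted p under 0.05. The globins sit between -10.10 and -12.26 in single fibers and between -1.01 and -2.60 in pools, whereas Alas2 sits between -3.96 and -5.09 in all 3.

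Comparisons among the fiber groups separated single fibers from pools. They share libraries with the comparisons above, so their values are given side by side. In pools of 5 against single fibers Hba-a2 rose (log2 fold change 9.55, SE 0.90, adjusted p = 0.0371), where 0.0157% of 12700 genes, or 2 genes, rose. Hbb-bt (9.26, adjusted p = 0.0527), Hba-a1 (9.17, 0.0527) and Hbb-bs (11.04, 0.0584) lay just past the threshold and Alas2 far from it (1.16, 0.760). No library of the pools of 5 overlapped a single fiber in any of the 4 globins, where 9.02% of all genes were higher without overlap. The call of Hba-a2 was lost without any 1 of single fibers 1 to 3 or 5-fiber pools 1 and 2 (adjusted p 0.0573 to 0.334), and without 5-fiber pool 3 all 4 globins passed.

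In pools of 20 against single fibers the 4 globins rose, where 27.5% of 16978 genes rose. The changes were 7.90 for Hba-a1, 8.28 for Hba-a2, 8.35 for Hbb-bt and 10.00 for Hbb-bs, with adjusted p between 0.00219 and 0.00531. No library overlapped in these 4 genes, where 33.7% of all genes were higher without overlap. These fits rest on 2 to 4 reads per globin over the single fibers and are no bounds. Alas2 was at 0.72 (adjusted p = 0.676), and its sign turned without single fiber 2 or 3 or without 20-fiber pool 2.

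Between pools of 20 and pools of 5 edgeR called 0 of the 4 tested globins, with values from -1.07 to -1.42 and adjusted p from 0.585 to 0.651. 0 of the 4 had an unadjusted p under 0.05, DESeq2 called 0 of the 2 to which it gave an adjusted p, and edgeR called 0% of all 17113 genes. With SEs of 1.03 to 1.10 on the log2 scale, a difference of several-fold between the pool sizes may not have been detectable. By CPM, for each globin 20-fiber pools 1 and 2 lay below all 3 pools of 5, and 20-fiber pool 3 lay among them.

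The balance among the globin genes was measured as shares of reads, which no scaling of the libraries touches, in libraries with 50 or more reads. Hba-a2 took 40.7%, 44.0% and 47.8% of the alpha reads in pools of 5, and in 20-fiber pools 1 and 3 it took 46.4% and 42.8%. In whole muscle it took 45.1%, 42.5% and 45.7%. The means were 44.3% ± 2.84 (SD, n = 5) in pools and 44.4% ± 1.66 (n = 3) in whole muscle, and their difference of -0.10 percentage points was within the spread (exact two-sided permutation p = 0.964, adjusted over 3 shares 0.964). The lower share of Hba-a2 holds before division by exon length, on which the 2 genes were at 390 and 380 TPM in whole muscle.

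Hbb-bt took 19.6%, 12.2% and 24.1% of the beta reads in pools of 5, 9.80%, 16.4% and 17.7% in pools of 20, and 23.3%, 21.7% and 21.2% in whole muscle. It was below the lowest whole muscle value in 5 of 6 pools and above the highest in 5-fiber pool 3. The means were 16.6% ± 5.14 (n = 6) and 22.1% ± 1.09 (n = 3), a difference of -5.45 percentage points that did not pass (exact permutation p = 0.119, adjusted 0.357). Without 5-fiber pool 3 the difference was -6.94 (exact permutation p = 0.0357, unadjusted). Every remaining pool then lay below every whole muscle library, and this p is the smallest the test can give for these group sizes. Leaving out the sole pool above whole muscle fixed that p, so no conclusion is drawn from it. The lowest pool share, in 20-fiber pool 1, rests on 15 of 153 reads and has a Clopper-Pearson 95% interval of 5.59% to 15.7%.

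Alpha globin took 36.1%, 26.7% and 42.9% of the globin reads in pools of 5, 26.8%, 13.7% and 29.5% in pools of 20, and its whole muscle shares were 24.3%, 29.5% and 29.1%. The means were 29.3% ± 9.88 (n = 6) and 27.6% ± 2.87 (n = 3), a difference of 1.68 percentage points (exact permutation p = 0.762, adjusted 0.964). The pools scattered on both sides of whole muscle, from 13.7% to 42.9%, wider than the counting intervals of the deeper pools. The lowest share, in 20-fiber pool 2, rests on 31 of 226 reads. The height of this share depends on how reads with several matches were counted, which is not stated.

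Alas2 set against the globins is a description chosen after the values were seen. Whole muscle had 2.52, 2.37 and 1.97 Alas2 reads per 100 globin reads. Pools of 5 had 0.406, 0.141 and 0.983, and pools of 20 had 0.957, 4.87 and 0.148. In 5 of the 6 pools the ratio was below every whole muscle library, and in 20-fiber pool 2, which had 11 Alas2 and 226 globin reads, it was above. The Alas2 density lay within the receptor background in that pool and in 3 of the 5 others, 5-fiber pool 2 and 20-fiber pools 1 and 3.

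**Figure D3:**
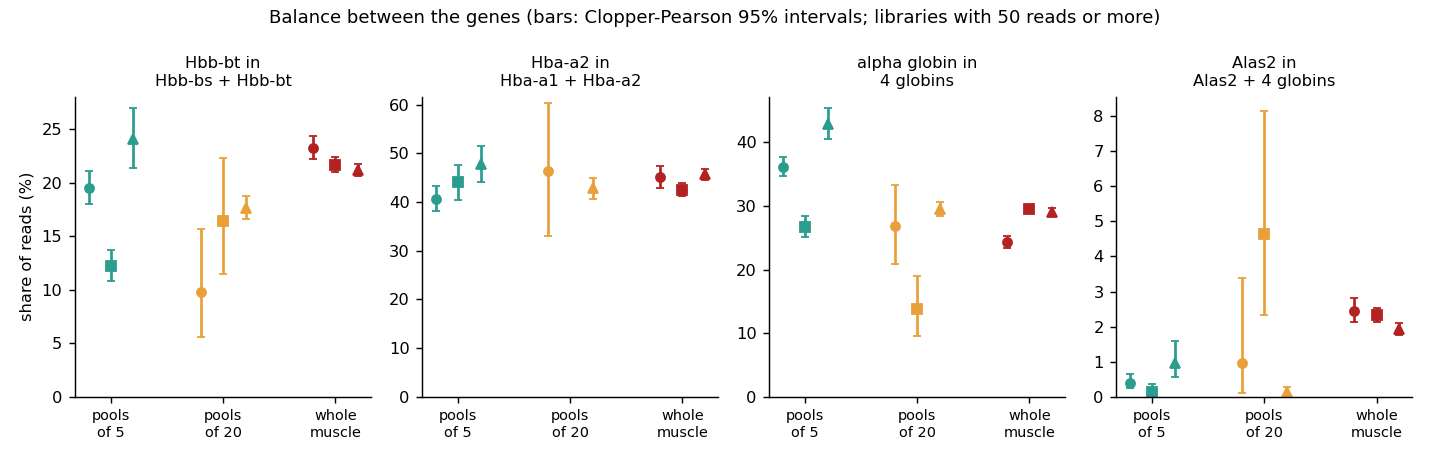
Shares of reads in percent, by group, for Hbb-bt among beta, Hba-a2 among alpha, alpha among the 4 globins, and Alas2 among Alas2 and globin reads; bars are Clopper-Pearson 95% intervals and only libraries with 50 or more reads are drawn. Hba-a2 lies near the same share in pools and whole muscle, with means of 44.3% and 44.4%, while the other shares scatter more among pools than among whole muscle libraries.

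Lists of other genes of the red cell and of heme were measured beside the 5 genes. In isolated fibers against whole muscle, 3 of 10 other globins were tested, 2 fell and 0 rose, with a median of -2.49. Myoglobin (Mb), the oxygen store of the fiber, changed by -3.40 (SE 0.77, adjusted p = 0.00744), from 947 ± 111 CPM in whole muscle to 117 ± 149 CPM. Cytoglobin (Cygb), found in connective tissue cells, changed by -2.49 (adjusted p = 0.0463). The embryonic globins Hba-x, Hbb-y and Hbb-bh1, named after their values were seen, had 0 reads in whole muscle and 13 to 18 over the 9 fiber libraries. Hbq1b, the theta globin, was at 0.123 CPM in whole muscle and was not tested.

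Of 15 tested genes of the red cell membrane, 2 fell, 0 rose and the median was 0.88. Against whole muscle that median was -1.15 in single fibers (9 tested), -0.28 in pools of 5 (9 tested) and 0.88 in pools of 20 (14 tested), so it depended on the group and on which genes passed the filter. Those that fell were Tmod1, which caps actin filaments in red cells and in the sarcomere (-2.34, adjusted p = 0.00581), and Gypc, a glycophorin (-2.01, adjusted p = 0.00633). Ank1, an ankyrin of red cells that muscle also makes, was at 0.98 (adjusted p = 0.199). The anion exchanger Slc4a1, a defining red cell gene named after its values were seen, was at 1.10 ± 0.841 CPM in whole muscle and did not pass (-1.42, adjusted p = 0.392). DESeq2 called 5 genes of this list higher and 1 lower, where it called 4599 of 22013 genes higher and 1812 lower.

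Of 10 tested late erythroid genes 2 fell, 0 rose and the median was -0.82. Mkrn1, a ubiquitin ligase, was among them (-1.54, adjusted p = 0.0102). Bpgm, which makes the effector that lowers the oxygen affinity of hemoglobin, was at -0.48 (adjusted p = 0.621), the mitophagy receptor Bnip3l at -0.87 (0.176) and Xpo7 at -0.15 (0.872). Of 8 tested erythroid regulators 1 fell, Lmo2 (-2.41, adjusted p = 0.0123), a transcription cofactor of blood and endothelial cells. The transferrin receptor Tfrc (-0.37, adjusted p = 0.709) and Ldb1 (-1.13, 0.0866) did not pass, and the list's median was -0.21. The erythroid factor Gata1, named after its values were seen, had 0 reads in whole muscle.

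Of 16 heme synthesis genes, among them both forms of the first enzyme, Alas2 and the mitochondrial transporter Abcb10 (-1.61, adjusted p = 0.0152) fell, 0 rose and the median was -0.57. Alas1, the form of the first enzyme made outside the erythroid line, was at 75.9 ± 73.5 CPM in fibers and 91.7 ± 14.7 in whole muscle (-0.56, adjusted p = 0.532). Ferrochelatase (Fech), the last enzyme, was at -0.49 (adjusted p = 0.486) and Glrx5, which serves iron-sulfur cluster assembly, at -0.58 (0.431). In these 5 lists 8 genes other than Alas2 fell. That number was 26 on total reads without factors, where 21.0% of all genes fell, and 13 without 5-fiber pool 3, where 11.4% fell. It was 5 without whole muscle 2 or 3, where 3.42% and 3.35% fell.

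Of 11 genes that handle heme and iron, 1 rose and 4 fell, with a median of -0.34. Hmox1, the heme oxygenase that breaks heme down, rose by 3.01 (SE 0.61, adjusted p = 0.00325), from 7.04 ± 1.02 CPM in whole muscle to 91.4 ± 88.8 CPM. Haptoglobin (Hp), which binds free hemoglobin, fell by 8.04 (adjusted p = 4.24e-08). The ferritin chains Fth1 (0.76, adjusted p = 0.620) and Ftl1 (0.92, adjusted p = 0.467) did not pass. Leaving out whole muscle 1 left 1 gene lower, and leaving out whole muscle 2 or 3 left 2.

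**Figure D4:**
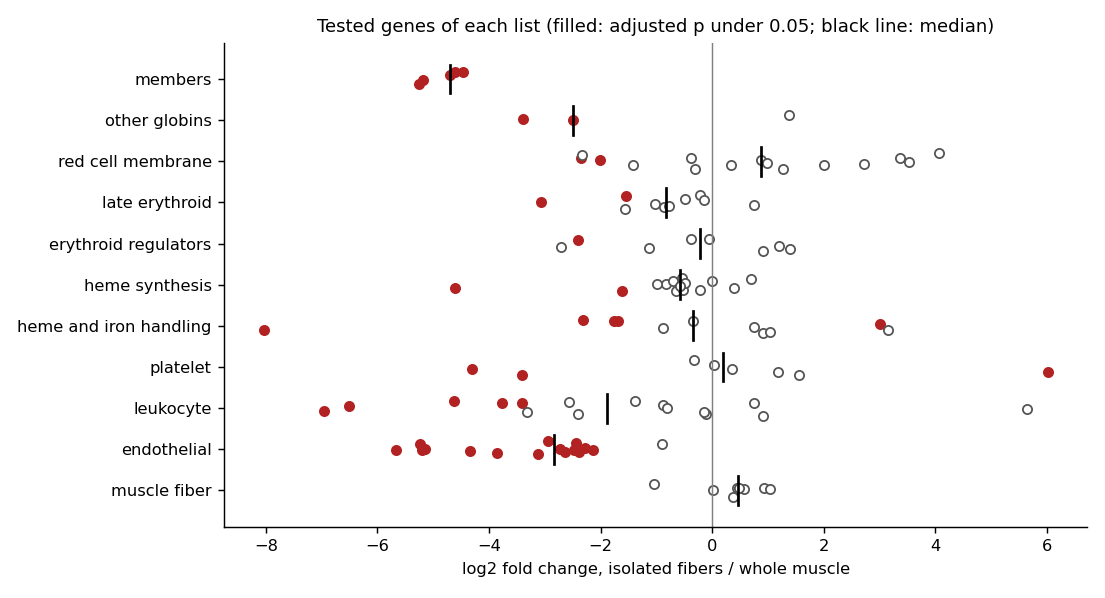
Log2 fold change in isolated fibers against whole muscle (horizontal axis) for each tested gene of the 5 genes and 10 lists (vertical axis); filled points have an adjusted p under 0.05 and black lines are medians. The 5 genes lie together near -4.70, and the tested genes of each list spread around its median, which is -0.57 for heme synthesis.

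Markers of the other cells that blood and vessels bring were measured beside the globins. In isolated fibers against whole muscle 15 of 16 endothelial genes fell and 0 rose, with a median of -2.83, and in single fibers all 16 fell. In pools of 5 edgeR called 0 of them, with 1 at an unadjusted p under 0.05 and 1 called by DESeq2, and in pools of 20 7 fell. Their summed level was 2.40 to 16.3 CPM in single fibers, 116 to 1025 in pools of 5, 98.6 to 804 in pools of 20 and 1295 to 1528 in whole muscle, and none of the 16 was at 0 in any pool. The same pools were high as for the globins, 5-fiber pools 1 and 2 and 20-fiber pool 3. Globin reads per 100 endothelial reads were 37.5, 58.6 and 92.6 in pools of 5, 20.8, 16.5 and 43.4 in pools of 20, and whole muscle had 43.4, 55.3 and 58.0. The part of these cells in the globin level was not tested.

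The summed level of the leukocyte genes was low in all fiber libraries. It was 0.260 to 7.34 CPM in single fibers, 12.5 to 33.9 in pools of 5, 9.98 to 39.9 in pools of 20 and 363 to 381 in whole muscle, so that no pool came near whole muscle. Most of the whole muscle reads in this sum were of Lyz2 (16199) and Cd74 (8718). Gene by gene, pools of 20 against whole muscle gave 3 falls and 2 rises among 12 tested leukocyte genes, with a median of -0.07. Of all 16969 genes tested there, 2299 fell and 5147 rose, with a median of 0.38. Cxcr2, among the rises, had 71 reads in pools of 20 and 0 in whole muscle, so it passed the filter through the pools alone. Leukocyte reads per 100 globin reads were 3.32, 7.49 and 11.7 in pools of 5 against 61.2, 52.5 and 43.0 in whole muscle. In pools of 20 they were 42.1, 245 and 10.0. In isolated fibers 5 of 16 leukocyte genes fell and 0 rose (median -1.89), among them lysozyme Lyz2 (-6.96, adjusted p = 7.91e-06), the class II chaperone Cd74 (-6.51, 2.54e-06) and the actin regulator Coro1a (-4.62, 2.73e-04). The number was 3 without 5-fiber pool 1, without 20-fiber pool 1 or 2, or without any whole muscle library. Up to 14 of the 16 were at 0 in a single fiber.

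Platelet genes, another trace of blood, gave 1 rise and 2 falls among 8 tested, with a median of 0.19. Their sum was 1.17 to 4.92 CPM in single fibers, 2.04 to 17.8 in pools of 5, 9.07 to 21.8 in pools of 20 and 28.6 to 40.8 in whole muscle. The platelet chemokine Pf4 fell (-4.30, adjusted p = 0.00135), as did Ppbp (-3.41, 0.0474). The rise was that of the collagen receptor Gp6 (adjusted p = 0.0372), which had 0 reads in whole muscle, 2 in single fibers, 21 in pools of 5 and 118 in pools of 20. It passed the filter on low counts through fiber libraries alone, and most of its reads lay in the pools of 20, where 78.7% to 97.3% of the receptor genes also had a read; the part of background reads in it was not tested. Itga2b was at 0.35 (adjusted p = 0.865). In isolated fibers against whole muscle the 8 genes of the fast fiber held no call (edgeR 0 lower and 0 higher, 0 at an unadjusted p under 0.05, DESeq2 0). Their median was 0.46, with Acta1 at 0.57 (edgeR adjusted p = 0.873), Mylpf at 0.48 (0.872) and Tnnt3 at 1.04 (0.620). In single fibers alone 5 of the 8 rose (6 with DESeq2) with a median of 1.10, where 1945 of 14028 genes rose. In pools of 5 and of 20 against whole muscle edgeR called 0, and DESeq2 called 1 lower in pools of 20.

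**Figure D5:**
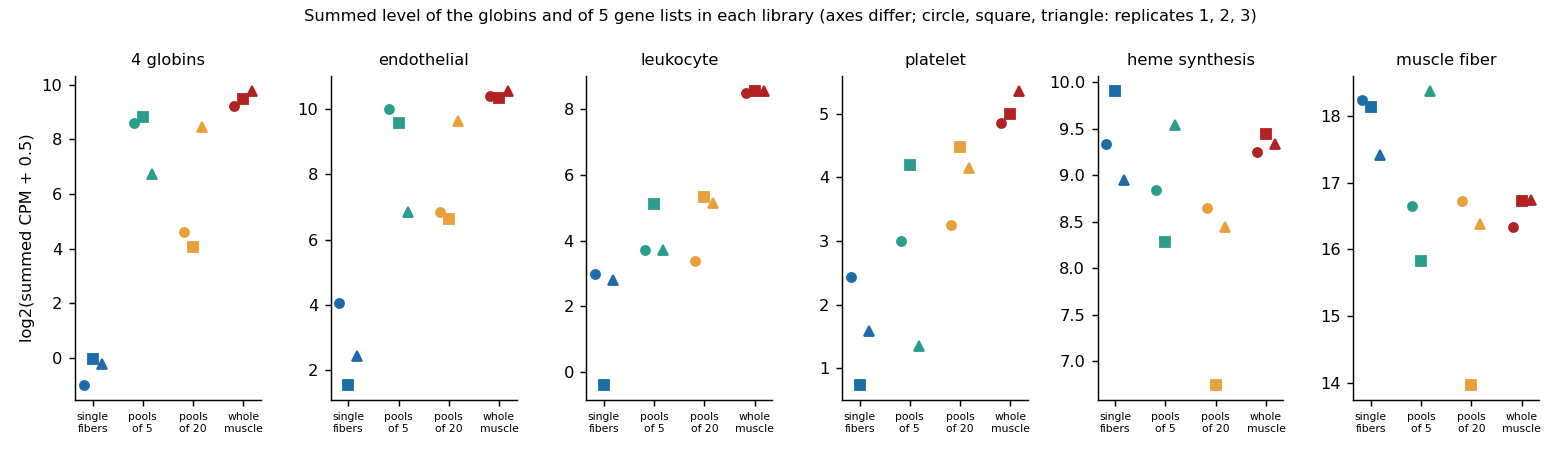
Summed level of the 4 globins and of 5 gene lists in each library, as log2(summed CPM + 0.5) on vertical axes that differ between panels, by group on the horizontal axis; circles, squares and triangles are replicates 1, 2 and 3. The endothelial panel shows the same low single fibers and the same 3 high pools as the globin panel, while the leukocyte sum, most of it Lyz2 and Cd74 in whole muscle, stays at 39.9 CPM or less in every fiber library against 363 or more in whole muscle.

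The genes whose pattern was most like that of the summed globins were found by the root mean square difference of log2(CPM + 0.5), centred on each gene's mean, over the 12 libraries. Smaller values mean a pattern closer in both shape and size of change, since the values were not scaled. The 12 points share depth and scaling, so this is a description. Among 6099 candidates outside the lists with a mean of 10 CPM or more in whole muscle the nearest was Rgs5, a marker of pericytes, with a difference of 0.92. It was at 0.0649 to 0.801 CPM in single fibers, 306, 188 and 20.5 CPM in pools of 5, 12.6, 6.64 and 141 CPM in pools of 20 and 177 to 199 CPM in whole muscle. Next came Ly6e (1.29), Igfbp7 (1.36), AW112010 (1.54), Cd93 (1.59), Srgn (1.65), Adgrf5 (1.66) and Cd34 (1.69).

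Among the genes of the lists the nearest were Fabp4, a fatty acid carrier of capillary endothelium (0.57), the water channel Aqp1 (0.98) and Gpihbp1, which anchors lipoprotein lipase in capillaries (1.14). Aqp1 is also a red cell membrane protein. The 10 nearest list genes were all endothelial, Cd74 was the first leukocyte gene at 2.14 and Alas2 stood at 3.15, rank 24. List genes had no minimum level here, and a gene with few reads cannot change as widely as the globins. The rank of Alas2 and of other low red cell genes therefore does not show whether their shape was unlike. In isolated fibers against whole muscle Fabp4 changed by -5.67 (adjusted p = 1.06e-04), Aqp1 by -5.21 (1.86e-04) and Gpihbp1 by -5.23 (3.06e-04), beside -4.47 to -5.26 for the globins. Ly6c1 changed by -2.94 (adjusted p = 0.0375).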

How the data were processed

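The deposited values are raw read counts per Ensembl gene, not normalized. HISAT2, SAMtools and featureCounts on GRCm38 (mm10) are named, per the submitters' processing notes; versions, strand and multi-mapping settings are not given in the sources used here. Of 55573 identifiers, 55394 matched GENCODE vM21, used for symbols, lengths and coding sequence; promoters are from RefSeq (GRCm38.p6). Totals were 4702823 to 27787120 reads, and no library was a near copy of another.

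Genes were tested with edgeR 4.0.16 (R 4.3.3; TMM, filterByExpr, glmQLFTest) and Benjamini-Hochberg adjustment over all genes, with DESeq2 1.42.0 as an alternative. Each pair of groups was fitted on its 6 libraries and isolated fibers against whole muscle on all 12. Shares were compared by exact permutation tests (SciPy 1.17.1). Other scalings, no filter, a replicate block, summed gene copies and leaving out each library were tried. Scripts were tested on simulated data.

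Named were all 5 genes; of each list the 3 with the highest whole muscle CPM and the 2 called with the largest change; and the 8 nearest patterns outside the lists. Exceptions are stated, and 1 gene that the rule names is not reported here. The genes and lists were chosen with earlier results of these data known.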

Additional observations from a re-analysis of the deposited data

How the results depend on the processing

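The 5 genes were lower in isolated fibers, and in single fibers, than in whole muscle under every scaling, without a filter, with the replicate block and without any 1 library (5 to 5 in both). DESeq2 called 4 in isolated fibers, where 8.23% of all genes fell, and gave no adjusted p for Hbb-bt. With copies summed, which leaves 3 features, 3 of 3 passed in both. In pools of 5 against whole muscle 1 passed, and the share of all genes that fell is given in brackets (4.22%). The number was 2 with DESeq2 (8.54%), 2 without the filter (2.87%) and 5 on total reads without factors (36.5%). It was 0 to 2 without 1 library (0.0306% to 23.1%). In pools of 20 against whole muscle, where 2 passed and 13.5% of all genes fell, it was 4 with RLE factors (14.6%) and 4 without the filter (6.50%). DESeq2 (16.4%) called 3 of the 3 to which it gave an adjusted p, Alas2, Hba-a1 at 0.0369 and Hba-a2 at 0.0299. Hbb-bt and Hbb-bs had none. The number was 1 of 3 with summed copies (13.6%) and 2 to 5 without 1 library (7.46% to 23.0%). In pools of 5 against single fibers, where 1 passed and 2 of 12700 genes rose, it was 4 with DESeq2 (395 of 12649 rose). It was 4 without the filter (694 of 41786), 4 on total reads (11 of 12700) and 4 in a fit on all 12 libraries (732 of 22110). It was 0 with summed copies (0 of 12698) and 0 to 4 without 1 library (0 to 602 genes rose). In pools of 20 against single fibers 4 passed, where 4677 of 16978 genes rose. It was 2 with DESeq2 (2 had no adjusted p), where 5401 of 16940 rose, and 2 of 2 summed globins, where 4677 of 16976 rose. It was 4 to 4 without 1 library, where 3012 to 9174 genes rose. The number of list genes lower was 5 with DESeq2 (8.23% of all genes fell), 26 on total reads (21.0%) and 5 to 13 without 1 library (3.35% to 11.4%).

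Replicate numbers did not pair the libraries: 4 of 18 same-number pairs correlated above 0.1 (-0.42 to 0.48), and 10 of 36 comparisons were best with their own number. With the replicate block 5 passed in pools of 20 against whole muscle, where 13.3% of all genes fell. In pools of 5 against single fibers 0 passed, where 0 of 12700 genes were called. In pools of 20 against single fibers 1 passed, where 7 of 16978 genes were called.

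Signs turned for Alas2 in pools of 20 against single fibers, -0.23 without the filter and -0.58 to 0.99 without 1 library, and for Hbb-bt between the pool sizes, 0.14 on total reads. Without 1 library the share differences ran from -6.94 to -4.08 (Hbb-bt), -1.05 to 0.81 (Hba-a2) and -1.05 to 4.79 (alpha). Of the genes called in isolated fibers, 49.0% were higher with TMM, 65.1% with upper-quartile factors, 71.7% with DESeq2, 12.5% on total reads and 25.3% to 58.8% without 1 library. The cause of these changes was not tested. Total reads and leaving out the libraries with receptor reads were chosen after seeing the data. Low counts limit Alas2 in fibers and all globins in single fibers.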
